A study of Mus musculus with 11 samples.

Results

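*Bbc3*, *Pmaip1*, *Bcl2l11*, *Bid*, *Bax*, *Bak1*, *Bcl2*, *Bcl2l1* and *Mcl1*, 9 genes of the BCL2 family, were described in AML12 cells, a line of mouse hepatocytes. They were taken by gene name from the 24849 genes of a table of read counts, in which 10 entries carry these names, and no caspase is among the 9. The table holds 11 libraries of polyadenylated RNA, 4 labelled KO (5, 6, 7 and 8), 3 labelled WT (5-6, 7 and 8) and 4 labelled KI (5, 6, 7 and 8). The KO cells carry a *Txndc5* gene cut by CRISPR/Cas9 in the fifth exon and recombined with a puromycin resistance gene. They were selected as a stable line by repeated incubations with puromycin. The labels nevertheless call their genotype a knockdown. The KI cells are described as overexpressing TXNDC5, a protein disulfide isomerase of the endoplasmic reticulum, from the ROSA26 locus. The WT cells are the parental AML12 cells. None of the sources used here says how many clones each edited line holds or whether the libraries of a group came from separate cultures, so that the p-values measure the spread between these libraries, which may be technical. A difference between lines cannot be told apart from a difference between the clones that were kept.

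The BCL2 family decides whether the outer membrane of the mitochondrion stays closed. BAX and BAK, the effectors, open it and let cytochrome c out, the guardians BCL2, BCL-XL (*Bcl2l1*) and MCL1 hold the effectors back, and the BH3-only proteins PUMA (*Bbc3*), NOXA (*Pmaip1*), BIM (*Bcl2l11*) and BID bind the guardians or switch on the effectors. Once cytochrome c is out, it assembles the apoptosome with APAF1 and caspase 9, which sets off the caspases downstream. Hepatocytes are known for needing BID when death starts at the receptor FAS, and for needing BCL-XL and MCL1 to survive.

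The motif through which these proteins bind each other, the BH3 motif, was searched in the coding sequences of the 9 genes (GENCODE vM21, GRCm38) as a leucine followed after 3 residues by glycine or alanine and then aspartate. It was found once in 8 genes and in 2 places in *Pmaip1*, whose sequence is not printed. The 42 bases around it are shown because they are what the 9 genes share beyond their name, with the codons of the leucine and of the aspartate in capitals:
Bbc3: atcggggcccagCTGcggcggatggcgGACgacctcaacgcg
Bcl2l11: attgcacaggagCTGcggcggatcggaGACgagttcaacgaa
Bid: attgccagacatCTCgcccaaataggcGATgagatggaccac
Bax: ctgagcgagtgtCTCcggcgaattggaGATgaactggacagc
Bak1: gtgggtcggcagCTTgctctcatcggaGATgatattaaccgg
Bcl2: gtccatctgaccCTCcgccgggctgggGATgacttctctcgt
Bcl2l1: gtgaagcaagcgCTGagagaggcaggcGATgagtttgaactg
Mcl1: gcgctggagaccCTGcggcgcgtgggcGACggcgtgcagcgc

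These stretches lie within single coding exons on GRCm38, at chr7:16313761-16313802 (plus strand, exon 3) for *Bbc3*, chr2:128147138-128147179 (plus strand, exon 3) for *Bcl2l11* and chr6:120897286-120897327 (minus strand, exon 4) for *Bid*. Those of the effectors are at chr7:45465994-45466035 (minus strand, exon 3) for *Bax* and chr17:27022528-27022569 (minus strand, exon 4) for *Bak1*. Those of the guardians are at chr1:106712572-106712613 (minus strand, exon 1) for *Bcl2*, chr2:152829694-152829735 (minus strand, exon 2) for *Bcl2l1* and chr3:95659424-95659465 (plus strand, exon 1) for *Mcl1*. Among the 8 printed stretches, *Bbc3* and *Bcl2l11* were most alike, with 28 of 42 bases identical (66.7%), and *Bid* was least like *Bcl2* and *Mcl1* (35.7% each). The RNA levels of the closest pair did not follow each other.

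Total counts were between 29840366 and 38422243 per library. *Txndc5* had 8.50 to 12.9 CPM (read counts scaled to the library size, here with TMM over the 11 libraries) in the KO, 138 to 147 in the WT and 158 to 179.5 in the KI libraries. It was thus 14.1-fold lower in KO than in WT (adjusted p = 4.09e-08), while the libraries labelled KI were not called higher than WT (log2 fold change 0.24, adjusted p = 0.136) unless library totals replaced TMM (0.57, adjusted p = 0.00623). A single newly assembled entry held 11.3 to 17.1% of the counts in WT, 4.32 to 6.44% in KO and 4.82 to 9.12% in KI. With library totals the median gene moved by 0.38 in KO against WT and by 0.30 in KI against WT, against -0.03 and -0.02 with TMM. Of 10 hepatocyte markers, 9 were detected, with summed levels of 9747 to 11589.9 CPM in KO, 7377 to 9426 in WT and 8562 to 10139.7 in KI, and *Cyp2e1* was at or under 3 counts in all groups. *Alb* alone had 3589 to 4767 CPM in KO and 373 to 739 in WT, so that the higher sum in KO leans on this gene. Single markers went different ways. *Alb*, *Apoa1*, *Cps1*, *Hnf4a* and *Apob* were 7.93-, 13.7-, 9.13-, 2.55- and 1.58-fold higher in KO than in WT. *Trf* and *Ttr* were 2.24- and 1.91-fold lower, and *Krt8* and *Krt18* were not called. In KI against WT, *Alb* and *Trf* were lower (2.08- and 2.11-fold) and *Apob*, *Krt8* and *Krt18* higher (2.32-, 1.53- and 1.81-fold). The 5 bile duct markers summed to 1339 to 1504 CPM in KO, 2974 to 4379 in WT and 2604 to 3083 in KI, with *Epcam* at or under 3 counts. Of these, *Krt7* and *Spp1* were 10.5- and 10.4-fold lower and *Krt19* 1.41-fold higher in KO than in WT. The 5 leukocyte markers were low, but their sum separated KO (1.95 to 2.69 CPM) from WT (6.73 to 9.56), with 3.24 to 6.66 in KI and *Adgre1* at or under 3 counts. *Ptprc* (log2 fold change -3.45, adjusted p = 0.0038) and *Cd68* (-1.98, adjusted p = 0.000158) were called lower in KO than in WT. *Lyz2* pointed the other way and was not called (0.83, adjusted p = 0.342), while *Csf1r* and *Adgre1* were too low to be tested. The markers of fibroblasts and endothelial cells summed to at most 1.82 and 0.425 CPM in any library. Whether these marker levels have a part in the results below was not tested. In RNA of whole cultures, fewer cells of a kind cannot be told apart from less RNA per cell.

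Levels were compared between genes as CPM per kilobase of exon, the union of all exons that GENCODE vM21 gives for a gene. These need not be the exons used for counting, and the order depends on them. By CPM alone, *Bcl2l1* (266 ± 36.5 in WT) stood above *Bax* (179 ± 31.5), whose exons are shorter (1.576 against 4.586 kb). In WT, *Bax* was highest with 114 ± 20.0 (SD, n = 3), followed by *Bcl2l1* with 57.9 ± 7.96 and *Mcl1* with 49.7 ± 7.12, and the ranges of the last 2 overlapped, which was so for no other neighbours in this order. *Pmaip1* (39.3 ± 1.84) and *Bid* (30.8 ± 5.75) came next, then *Bak1* (23.2 ± 2.66) and *Bbc3* (12.1 ± 1.91). *Bcl2l11* (3.26 ± 0.733) and *Bcl2* (1.00 ± 0.445) were the lowest, so that among the guardians *Bcl2* was far under *Bcl2l1* and *Mcl1* in every library. *Bax* stayed first and *Bcl2* last in all 3 groups, whereas the middle of the order moved. In KO, *Bid* (53.2 ± 1.54, n = 4) stood ahead of *Mcl1* (36.7 ± 2.47), and *Pmaip1* (15.0 ± 0.929) stood below *Bbc3* (27.4 ± 1.04). In KI, *Mcl1* (65.2 ± 2.37, n = 4) was second, above *Bcl2l1* (54.4 ± 4.84), whose range overlapped that of *Bid* (52.9 ± 2.68).

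**Figure D1:**
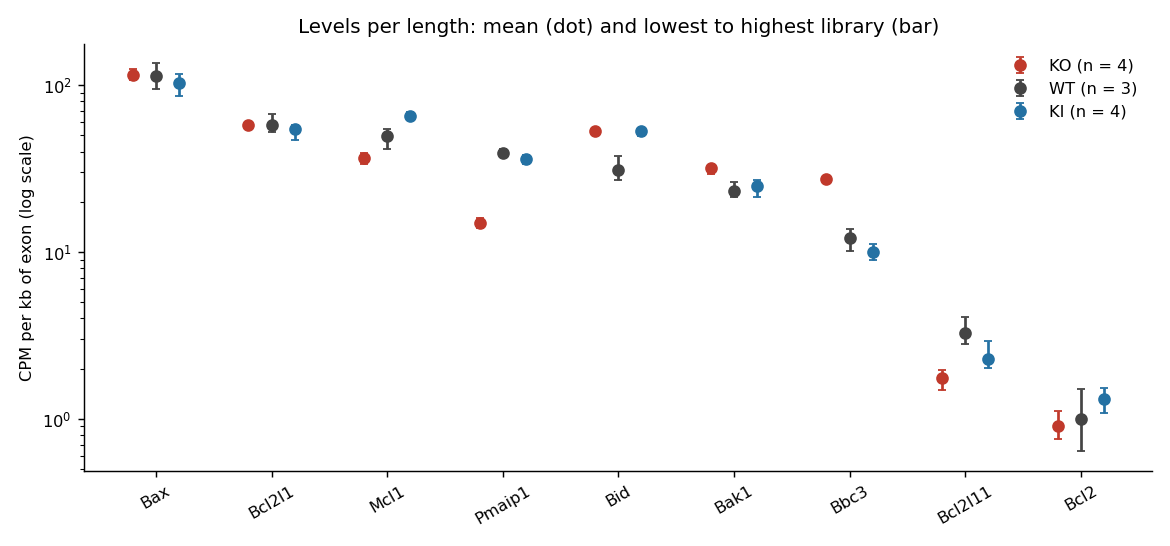
Levels of the 9 genes as CPM per kilobase of exon (log axis) in the KO (n = 4), WT (n = 3) and KI (n = 4) libraries, with the mean as a dot and the lowest and highest library as the ends of the bar. Bax is highest and Bcl2 lowest in each group, and Pmaip1 lies lower and Bbc3 higher in KO than in the other groups.

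The BH3-only genes changed most in KO against WT, and in opposite directions. *Bbc3*, whose product PUMA binds all guardians and is a classical target of p53, had 60.5, 58.4, 55.2 and 58.7 CPM in the KO libraries 5 to 8, 29.4, 26.3 and 21.4 in WT 5-6, 7 and 8, and 21.5, 20.9, 18.9 and 23.6 in the KI libraries. All KO libraries lay above all others, and the WT and KI libraries overlapped. *Bbc3* rose 2.23-fold in KO against WT (log2 fold change 1.16, SE 0.14, adjusted p = 4.96e-05; here and throughout, edgeR's quasi-likelihood test, adjusted over all genes tested by Benjamini-Hochberg) and was 2.75-fold higher in KO than in KI (1.46, SE 0.09, adjusted p = 5.81e-09). KI against WT was not called (-0.27, SE 0.15, adjusted p = 0.167), although it was without WT 8 (-0.39, adjusted p = 0.0326).

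*Pmaip1* went the other way. It encodes NOXA, which binds MCL1 with preference and is also known as a p53 target. Its levels were 38.3, 43.1, 39.6 and 43.4 CPM in KO, 105, 104 and 113 in WT, and 101, 97.8, 104 and 92.4 in KI. The KO libraries lay far below the others, which overlapped. *Pmaip1* was 2.64-fold lower in KO than in WT (log2 fold change -1.40, SE 0.11, adjusted p = 2.89e-06) and 2.39-fold lower than in KI (-1.26, SE 0.09, adjusted p = 1.18e-08). KI against WT was not called (-0.12, SE 0.12, adjusted p = 0.458). *Bbc3* and *Pmaip1* kept these calls of KO under every alternative tried.

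*Bcl2l11* encodes BIM, which binds all guardians and activates BAX directly. It had 12.0, 13.7, 15.8 and 14.9 CPM in KO, 22.4, 23.1 and 32.9 in WT, and 16.8, 16.2, 23.4 and 16.5 in KI. The KO libraries were the lowest, with KI 7 inside the WT range and the other KI libraries between the groups. It fell 1.88-fold in KO against WT (-0.91, SE 0.17, adjusted p = 0.000965), a call that was lost with library totals (-0.52, adjusted p = 0.0676). It was called 1.43-fold lower in KI than in WT (-0.52, SE 0.19, adjusted p = 0.0387) and 1.29-fold lower in KO than in KI (-0.37, SE 0.14, adjusted p = 0.0417). Both of these calls were lost with library totals (adjusted p = 0.507 and 0.119), the first also without WT 7, WT 8, KI 5, KI 6 or KI 8 in turn, and the second without KO 5, KO 6, KI 5 or KI 7 or with all 11 libraries in a single fit (adjusted p = 0.0719).

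*Bid*, which caspase 8 cuts to link death receptors with the mitochondrion, was the member that was higher in both edited lines. It had 196, 189.6, 185 and 184 CPM in KO and 197, 194, 183 and 177 in KI, against 133, 99.7 and 95.7 in WT. Both edited lines lay above all WT libraries and overlapped each other. *Bid* rose 1.70-fold in KO (0.77, SE 0.13, adjusted p = 0.000655) and 1.72-fold in KI (0.78, SE 0.15, adjusted p = 0.00111), comparisons that share the WT libraries. KO and KI were not called different (0.01, SE 0.08, adjusted p = 0.907).

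The name *Bid* joins 2 entries of the table, of which the smaller held between 5.66% (WT 8) and 16.4% (KI 6) of the *Bid* counts. Tested alone, the smaller entry rose by 1.12 in KO (log2, adjusted p = 0.0183) and by 1.50 in KI (adjusted p = 0.000972), and the larger by 0.72 (adjusted p = 0.00138) and 0.68 (adjusted p = 0.00335). Each entry was therefore higher than in WT in both lines. Taken as whole gene spans with introns, *Bid* overlaps *Bcl2l13* on the opposite strand and *Bax* overlaps *Gm45808* on the same strand. *Bak1* likewise overlaps *Ggnbp1* and *Bcl2* an antisense gene, *D630008O14Rik*. No source states that the counting used strand, so that reads from any overlapping exons of these pairs cannot be told apart. Whether their exons overlap was not examined.

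**Figure D2:**
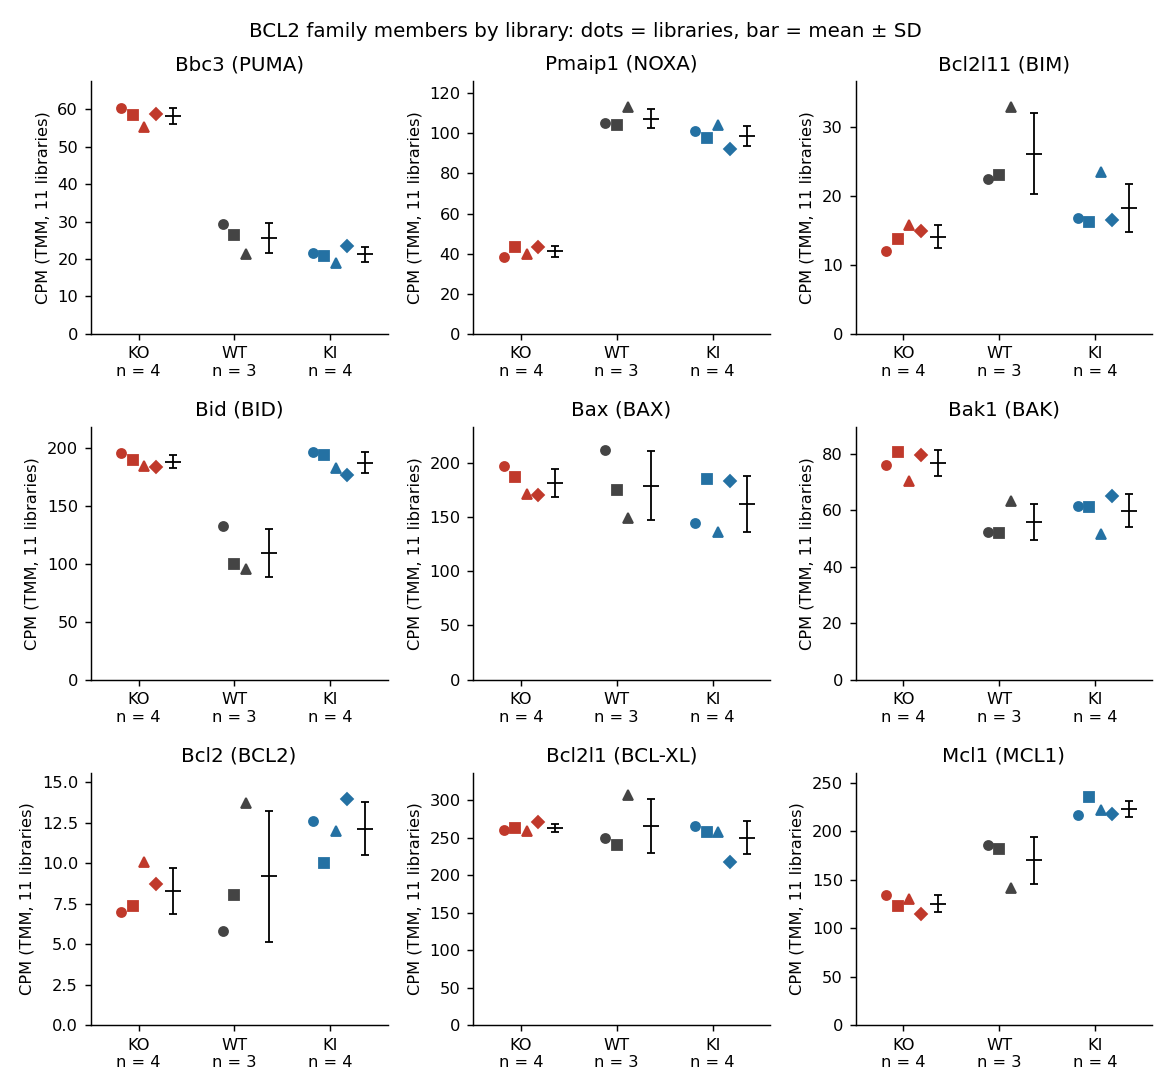
Level of each of the 9 genes in CPM (scaled by TMM over the 11 libraries, each axis from 0) in the KO (n = 4), WT (n = 3) and KI (n = 4) libraries, one dot per library (circle, square, triangle and diamond in the order of the labels) and the mean ± SD as a bar. Bbc3 and Bak1 lie higher and Pmaip1, Bcl2l11 and Mcl1 lower in KO than in WT with no overlap, and Bid lies higher in KO and KI than in WT.

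Of the effectors, *Bak1* rose in KO and *Bax* was not called in any comparison. *Bak1*, whose product sits in the mitochondrial outer membrane, had 76.1, 80.5, 70.4 and 79.7 CPM in KO, 52.4, 51.8 and 63.2 in WT, and 61.6, 61.0, 51.4 and 65.1 in KI. All KO libraries lay above the WT and KI libraries, which overlapped. *Bak1* was 1.35-fold higher in KO than in WT (0.44, SE 0.12, adjusted p = 0.00963) and 1.29-fold higher than in KI (0.36, SE 0.09, adjusted p = 0.00363), and KI against WT gave 0.10 (SE 0.14, adjusted p = 0.598).

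*Bax*, whose product moves from the cytosol to the mitochondrion on activation, had 197, 187, 171 and 170.5 CPM in KO, 212, 175 and 149 in WT, and 144, 185, 136 and 183 in KI. The WT libraries spanned the KO libraries, and 2 of the 4 KI libraries fell below both groups. The log2 fold changes were 0.00 (SE 0.14, adjusted p = 0.999) in KO against WT, -0.14 (SE 0.16, adjusted p = 0.499) in KI against WT and 0.17 (SE 0.11, adjusted p = 0.193) in KO against KI. With library totals *Bax* was called higher in KO than in WT (0.43, adjusted p = 0.00762), against a shift of the median gene of 0.38.

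Among the guardians, *Mcl1* differed between all 3 lines. MCL1 is a protein with a short life that the hepatocyte cannot do without. *Mcl1* had 134, 123, 129.9 and 115 CPM in KO, 186, 182 and 142 in WT, and 217, 235, 222 and 218 in KI. The groups did not overlap, with KO lowest and KI highest. It fell 1.37-fold in KO against WT (-0.46, SE 0.13, adjusted p = 0.0114), rose 1.31-fold in KI against WT (0.39, SE 0.14, adjusted p = 0.0394) and was 1.77-fold lower in KO than in KI (-0.83, SE 0.08, adjusted p = 5.94e-07). The fall in KO was gone with library totals (-0.03, adjusted p = 0.824) and was not called without WT 7 (-0.38, adjusted p = 0.0591). The rise in KI was not called when any of 6 of the 7 libraries was left out, all but WT 5-6 (adjusted p between 0.0519 and 0.106), whereas KO against KI was called under every alternative.

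*Bcl2l1*, the source of BCL-XL, had 260.3, 263, 259 and 271 CPM in KO, 249, 240.3 and 307 in WT, and 266, 258, 258 and 217 in KI. The groups overlapped, and WT 8 was the highest and KI 8 the lowest of all libraries. It was not called in KO against WT (-0.03, SE 0.12, adjusted p = 0.837), KI against WT (-0.09, SE 0.14, adjusted p = 0.643) or KO against KI (0.08, SE 0.08, adjusted p = 0.44).

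*Bcl2*, the founding member of the family, was low, with 6.98, 7.37, 10.1 and 8.70 CPM in KO, 5.84, 8.03 and 13.7 in WT, and 12.6, 10.0, 12.0 and 14.0 in KI. The WT libraries spanned nearly the whole range. Against WT it was not called in KO (-0.17, SE 0.27, adjusted p = 0.606) or in KI (0.39, SE 0.25, adjusted p = 0.226), but in KI it was without WT 8 (0.80, adjusted p = 0.00561). It was 1.45-fold lower in KO than in KI (-0.54, SE 0.15, adjusted p = 0.00774), with KO 7 just above KI 6, and this call was lost when all 11 libraries entered a single fit (-0.54, adjusted p = 0.0527).

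Counted together, 6 of the 9 genes were called in KO against WT, 3 higher (*Bbc3*, *Bid*, *Bak1*) and 3 lower (*Pmaip1*, *Bcl2l11*, *Mcl1*), where 55.1% of the 13359 genes tested were called, 26.7% higher and 28.4% lower. The groups did not overlap for the same 6 genes, and for 55.3% of all genes. The median of the 9 log2 fold changes was -0.03, that of all genes -0.03. In KI against WT, 3 of 9 were called, *Bid* and *Mcl1* higher and *Bcl2l11* lower, where 42.3% of 13534 genes were (21.2% higher, 21.0% lower), and 2 did not overlap, against 44.7% of all genes. The median was -0.09 for the 9 genes and -0.02 for all. In KO against KI, which shares no WT library, 6 of 9 were called, *Bbc3* and *Bak1* higher and *Pmaip1*, *Bcl2l11*, *Bcl2* and *Mcl1* lower, where 54.0% of 13269 genes were (27.0% higher, 27.0% lower). Here 5 did not overlap, against 48.6% of all genes, and the medians were 0.01 and 0.00. With 42.3 to 55.1% of all genes called, the number of members called is near the background. With library totals, 72.8% of all calls in KO against WT and 76.3% in KI against WT were higher, against 48.5% and 50.2% with TMM, and the members called were then *Bbc3*, *Bid*, *Bax*, *Bak1* and *Pmaip1* in KO and *Bid* and *Mcl1* in KI.

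**Figure D3:**
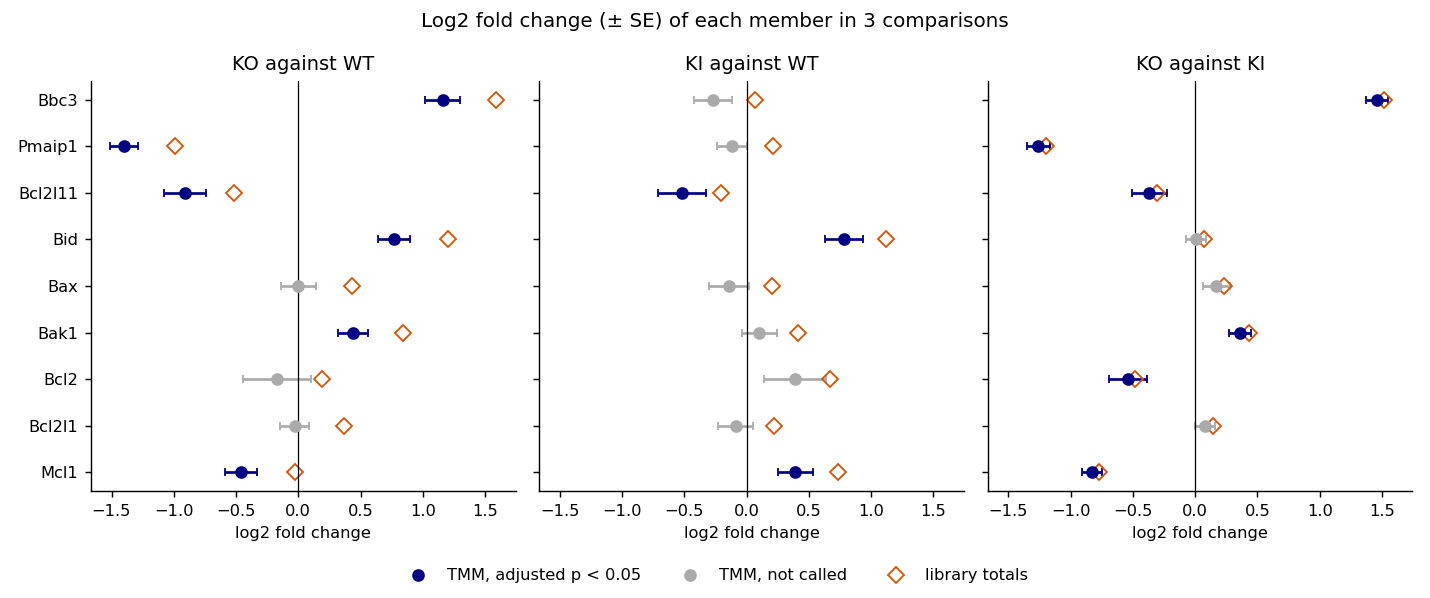
Log2 fold change of each of the 9 genes (horizontal axis) in KO against WT, KI against WT and KO against KI, as filled dots with SE from the TMM-scaled fits, dark where the adjusted p was under 0.05 and grey otherwise, and as open diamonds from library totals. Against WT the diamonds lie to the right of the dots for all genes, which takes Mcl1 in KO to -0.03 and Bax to 0.43, and in KO against KI the 2 scalings nearly coincide.

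Dividing the counts of a member by those of another in the same library removes the scaling. The counts of *Bbc3* per count of *Mcl1* were 0.450, 0.476, 0.425 and 0.510 in KO, 0.158, 0.145 and 0.150 in WT, and 0.0990, 0.0891, 0.0853 and 0.108 in KI. The 3 groups were separate, with means of 0.465 ± 0.0366 (SD, n = 4), 0.151 ± 0.00681 (n = 3) and 0.0954 ± 0.0103 (n = 4). *Bax* per *Mcl1* was also ordered KO, WT, KI without overlap, at 1.45 ± 0.0881, 1.05 ± 0.0896 and 0.725 ± 0.104. *Bax* per *Bcl2l1*, a pair of which neither gene was called, overlapped between the groups (0.690 ± 0.0555, 0.689 ± 0.186 and 0.658 ± 0.151). *Bbc3* per *Bcl2l1* was higher in KO (0.221 ± 0.00829) than in WT (0.0990 ± 0.0259) and KI (0.0861 ± 0.0157), which overlapped. *Bcl2l11* per *Bcl2* was lower in KO (1.71 ± 0.124) and in KI (1.52 ± 0.339) than in WT (3.04 ± 0.730), whereas *Bcl2l11* per *Mcl1* overlapped between KO (0.113 ± 0.0175) and WT (0.160 ± 0.0626). *Bcl2l11* per *Bcl2l1* was lower in KO (0.0535 ± 0.00622) than in WT (0.0977 ± 0.00873) and KI (0.0732 ± 0.0130), which overlapped each other but not KO. *Pmaip1* was not divided in this way, so that its fall in KO has no part in these ratios. No test was made on these ratios, which are of counts and not of molecules.

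**Figure D4:**
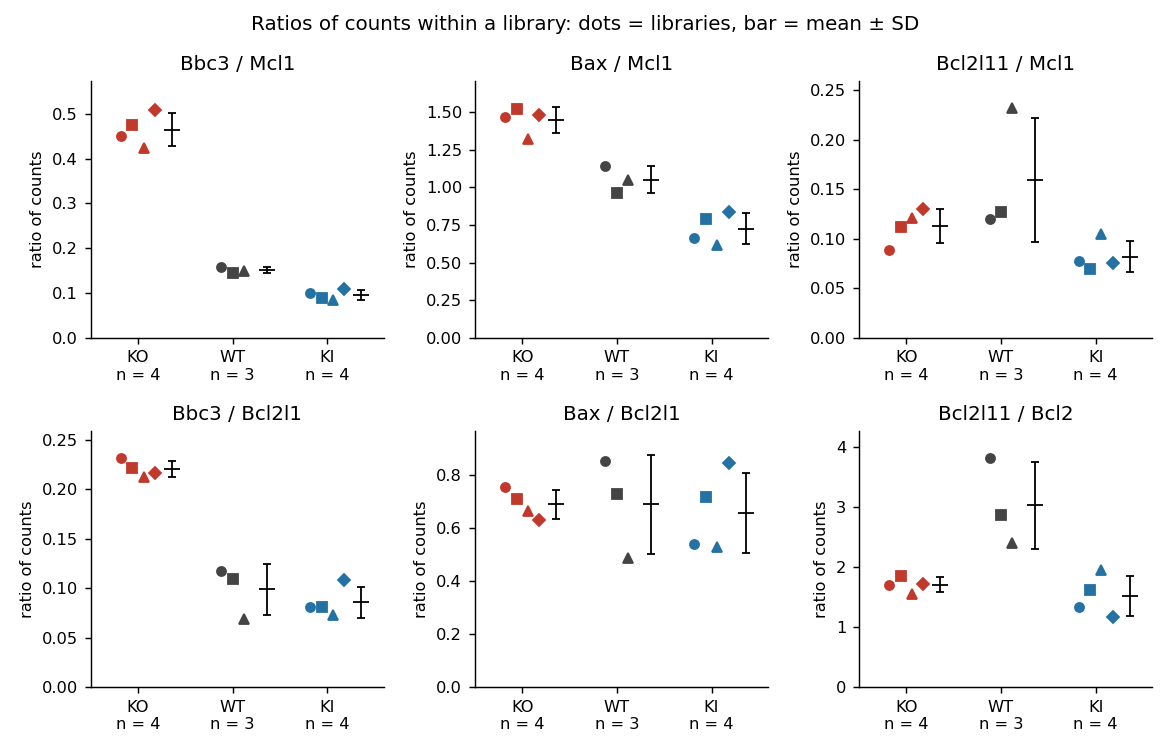
Ratio of the counts of 2 genes within a library (vertical axis, from 0, no unit) for 6 pairs in the KO (n = 4), WT (n = 3) and KI (n = 4) libraries, one dot per library and the mean ± SD as a bar. Bbc3 per Mcl1 and Bax per Mcl1 separate the 3 groups in the order KO, WT, KI, and Bax per Bcl2l1 overlaps.

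The WT libraries varied more than the edited ones for several members. WT 8 was the highest WT library for 5 genes (*Bak1*, *Bcl2*, *Bcl2l1*, *Bcl2l11* and *Pmaip1*) and the lowest for the other 4. Its TMM factor of 0.947 was nearer to those of KO (1.05 to 1.13) and KI (1.02 to 1.12) than the factors of WT 5-6 (0.744) and WT 7 (0.816). Without WT 8, the same 6 members were called in KO against WT, and 3 were called in KI against WT, namely *Bid*, *Bbc3* and *Bcl2*.

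The genes whose pattern over the 11 libraries was most like that of a member were sought for *Bbc3* and *Pmaip1*, the members whose group means differed by at least 1 on the log2 scale. For *Bbc3*, out of 10290 genes, these were *Dlk2* and *Akr1b3*, with root mean square differences of 0.112 and 0.146 in centred log2 CPM. *Dlk2*, a membrane protein related to the Notch ligands, had 50.2 ± 4.25 CPM in KO, 22.1 ± 2.66 in WT and 16.8 ± 1.75 in KI, and *Akr1b3*, which encodes aldose reductase, had 191 ± 22.5, 76.1 ± 20.0 and 68.4 ± 4.38. For *Pmaip1* they were *Exoc3l4* (0.0962) and *Stau2* (0.113). *Stau2*, which binds double-stranded RNA, had 9.91 ± 1.32 CPM in KO, 27.8 ± 1.52 in WT and 24.1 ± 1.50 in KI.

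The promoter of *Bbc3*, the member that rose most in KO, is shown with its GC boxes (GGGCGG on either strand) in capitals. It is the first of 3 start sites that RefSeq gives for the gene, from 250 bases before to 50 after the start (GRCm38.p6, chr7:16309333-16309632, plus strand):
Bbc3: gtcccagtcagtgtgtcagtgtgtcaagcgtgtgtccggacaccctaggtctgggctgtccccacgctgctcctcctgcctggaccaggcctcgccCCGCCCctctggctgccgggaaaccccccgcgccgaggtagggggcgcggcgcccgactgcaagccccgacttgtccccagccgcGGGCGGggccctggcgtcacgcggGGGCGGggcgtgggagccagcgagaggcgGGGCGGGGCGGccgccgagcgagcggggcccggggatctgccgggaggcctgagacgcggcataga

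This window is 76% G and C and holds 5 GC-box matches, which overlap in 1 place. Of the 13 promoters that RefSeq gives for 8 of the members (*Pmaip1* was not among them), 9 held a GC box, against 35.7% of 32851 mouse promoters of this length. An E-box (CACGTG) was in 2, a CCAAT box (CCAAT) in 3 and a FOXO motif (GTAAACA) in 2, against 7.15%, 37.4% and 3.65% of all. The CHOP-ATF4 motif (TGATGNAA) and a p53 core in tandem (CATGNNNNNNCATG) were in 0 of 13, against 3.97% and 0.712%. Both strands were searched, 2 of the promoters of *Bbc3* overlap, and no match says only that these letters are not in these windows.

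Related genes were read from the same fits, and their counts of calls stand against the 55.1%, 42.3% and 54.0% of all genes called in KO against WT, KI against WT and KO against KI. By direction, 26.7%, 21.2% and 27.0% of all genes were called higher and 28.4%, 21.0% and 27.0% lower, in the same order. Of 16 other genes of the family listed, 9 passed the filter on low counts, and in KO against WT 2 were called higher and 5 lower (26.7% and 28.4% of all genes) with a median of -0.48 (-0.03 for all genes), or 3 higher and 2 lower with library totals. *Bok*, an effector-like member that the guardians do not restrain, had 13.3, 11.4, 11.1 and 9.46 CPM in KO, 1.25, 1.78 and 1.06 in WT, and 4.64, 4.22, 4.05 and 5.14 in KI. The 3 groups did not overlap, and *Bok* rose 7.88-fold in KO (adjusted p = 3.38e-06) and 3.20-fold in KI (adjusted p = 0.000451) and was 2.50-fold higher in KO than in KI (adjusted p = 3.32e-06). *Bnip3* and *Bnip3l*, BH3-containing receptors of mitophagy that respond to low oxygen, were lower than WT in both lines. *Bnip3* had 404 ± 85.3 CPM in KO (SD, n = 4), 1890.2 ± 579 in WT (n = 3) and 503 ± 72.0 in KI (n = 4), a 4.75-fold fall in KO (adjusted p = 2.31e-05) and a 3.76-fold fall in KI (adjusted p = 2.78e-05). *Bnip3l* fell 4.57-fold (adjusted p = 8.34e-06) and 3.23-fold (adjusted p = 2.15e-05). *Bcl2l12* was higher in both lines (1.44 and 1.15 on the log2 scale, adjusted p = 8.85e-05 and 0.000547), and these calls of *Bok*, *Bnip3*, *Bnip3l* and *Bcl2l12* against WT held under both scalings. The guardian *Bcl2l2* (-0.48, adjusted p = 0.00399) and the BH3-only gene *Bad* (-0.78, adjusted p = 0.00228) were lower in KO than in WT with TMM only. *Bcl2l15*, at up to 0.330 CPM in KO and 0.921 in WT, was lower in KO (-1.60, adjusted p = 0.0394), a call kept in 1 of 7 fits that left out a library.

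In KI against WT, 2 of the 9 were called higher and 2 lower (median -0.22), the same numbers with library totals, and in KO against KI 2 were higher and 3 lower (median -0.14), or 3 and 2 with library totals. *Bcl2l15* was lower in KO than in KI (-2.06, SE 0.54, adjusted p = 0.005), from levels of at most 1.59 CPM. *Hrk* and *Bcl2a1a* were at 0 counts in all libraries.

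The caspases are the proteases that carry out or trigger cell death and inflammation. Of 8 listed, 7 were tested, and in KO against WT 4 were called lower with a median of -0.37, or 3 lower and 2 higher with library totals. The 4 of 7 called are near the 55.1% of all genes in number. All 4 were lower, however, where 28.4% of all genes were called lower and 26.7% higher. The inflammatory *Casp1* (-2.95, adjusted p = 0.000131) and *Casp4* (-2.16, adjusted p = 5.52e-06) fell most, followed by *Casp12* (-1.31, adjusted p = 0.000912), and these 3 calls held under both scalings. *Casp1*, at 0.804 ± 0.380 CPM in KO, 6.50 ± 2.57 in WT and 4.14 ± 0.406 in KI, had the same order as the summed leukocyte markers (1.95 to 2.69, 6.73 to 9.56 and 3.24 to 6.66 CPM), and their part in its fall was not tested. *Casp8*, which cuts BID, was lower (-0.37, adjusted p = 0.0289) with TMM only, a call kept in 1 of 7 fits that left out a library. The initiator *Casp9*, at 28.4 ± 2.15 CPM in KO and 23.2 ± 3.39 in WT, was not called (0.27, adjusted p = 0.12). In KI against WT *Casp4* (-2.34, adjusted p = 3.19e-06) and *Casp12* (-1.07, adjusted p = 0.00121) were lower and *Casp9* (0.41, adjusted p = 0.0402) and *Casp2* (0.37, adjusted p = 0.0475) higher (median -0.18), or 3 higher and 2 lower with library totals. *Casp9* and *Casp2* each kept this call in 2 of 7 fits that left out a library. In KO against KI 3 were lower, *Casp1* (-2.30, adjusted p = 2.17e-05), *Casp6* (-0.54, adjusted p = 0.00122) and, with TMM only, *Casp2* (-0.24, adjusted p = 0.0493).

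**Figure D5:**
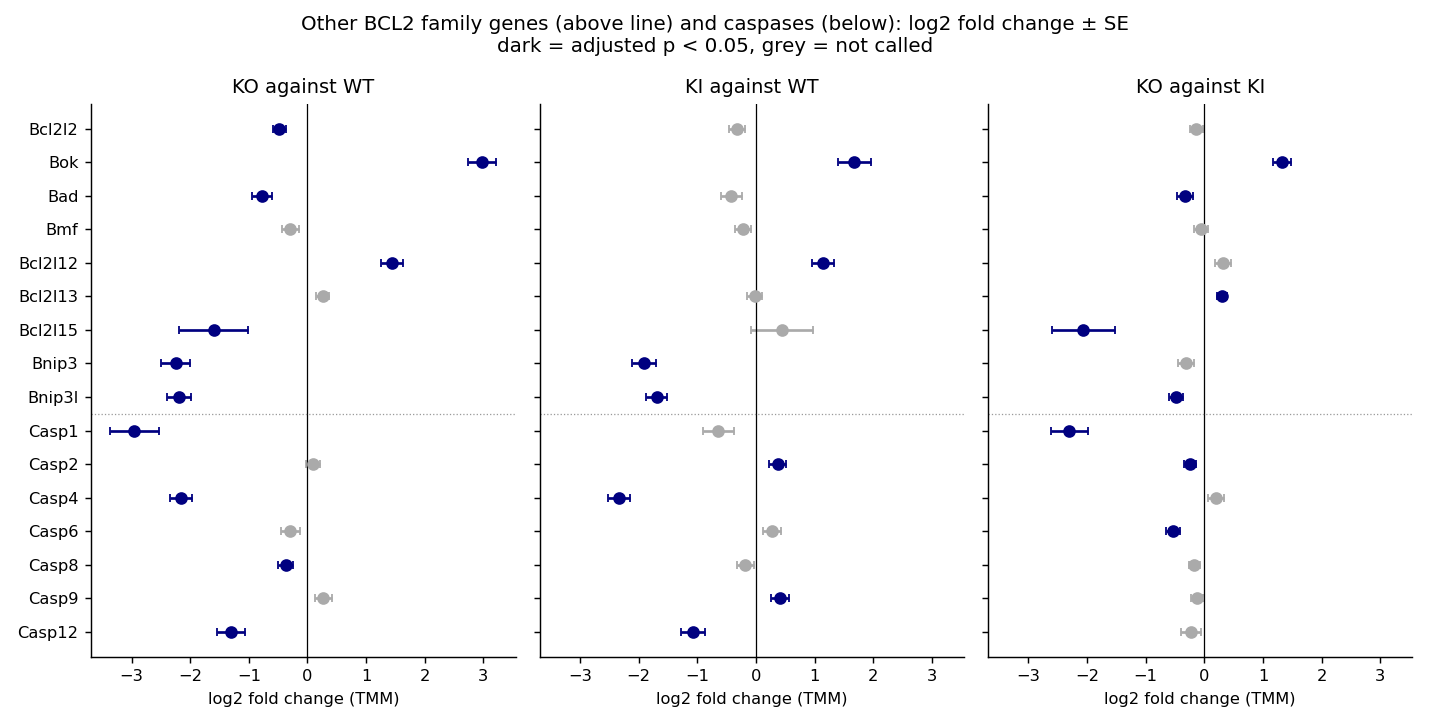
Log2 fold change ± SE (TMM-scaled fits) of other BCL2 family genes and of 7 caspases that passed the filter in KO against WT, KI against WT and KO against KI, dark where the adjusted p was under 0.05 and grey otherwise. Bok lies to the right and Bnip3 and Bnip3l to the left against WT in both lines, and Casp1 lies to the left in both comparisons of KO.

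Downstream of the mitochondrion, 11 genes of the apoptosome and of mitochondrial release were tested. In KO against WT 4 were called higher and 3 lower (median -0.03), or 5 and 0 with library totals. *Htra2*, a protease that antagonizes inhibitors of apoptosis, rose by 0.80 (adjusted p = 0.000278) and the nuclease gene *Endog* by 0.67 (adjusted p = 0.0169), while *Diablo* was lower (-0.77, adjusted p = 0.0101) with TMM and was not called without WT 5-6 or WT 7. *Apaf1* (24.0 ± 1.51 CPM in KO, 19.4 ± 3.70 in WT) and *Cycs* (236 ± 29.5 and 243 ± 65.9), the genes of the apoptosome scaffold and cytochrome c, were not called (adjusted p = 0.129 and 0.788). In KI against WT 1 was higher, *Apaf1* (0.84, adjusted p = 0.00447), and 2 lower (median 0.17), or 6 and 0 with library totals. In KO against KI 3 were higher and 4 lower (median -0.23), and *Apaf1* was among the lower ones (-0.53, adjusted p = 0.00435).

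Of the 8 inhibitors of apoptosis, 2 were called higher and 4 lower in KO against WT (median -0.33), or 3 and 3 with library totals. *Xiap*, which blocks caspases directly, had 177, 162, 189 and 155 CPM in KO, 311, 403 and 317 in WT, and 267, 232, 271 and 313 in KI. The KO libraries lay below all others, and *Xiap* was 2.05-fold lower in KO than in WT (adjusted p = 0.000113) and 1.58-fold lower than in KI (adjusted p = 5.37e-05), under both scalings. *Birc2* (-1.23, adjusted p = 0.000258) and *Naip5* (-1.51, adjusted p = 0.00188) were lower and *Birc5*, the gene of survivin, which also serves in cell division, was higher (1.40, adjusted p = 6.39e-05). The KI line had 1 higher than WT, *Birc5* (1.35, adjusted p = 6.05e-05), and 3 lower, *Naip5* (-2.08, adjusted p = 0.000237), *Naip2* (-0.93, adjusted p = 7.92e-05) and *Birc2* (-0.90, adjusted p = 0.00195), or 2 and 3 with library totals. *Naip2* and *Naip5* are close copies of each other, and how their shared reads were counted is not given in the sources used here. In KO against KI 1 was higher, *Naip2* (0.69, adjusted p = 2.43e-05), and 3 lower.

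Of 11 death receptors and adaptors, 9 were tested, with 2 higher and 4 lower in KO against WT (median -0.20, or 3 and 1 with library totals), 2 and 2 in KI against WT (median -0.13, or 3 and 1) and 2 and 1 in KO against KI (median 0.15). *Fas*, the receptor upstream of *Bid*, had 49.8, 38.8, 44.9 and 35.8 CPM in KO, 83.6, 72.4 and 47.1 in WT, and 13.7, 13.7, 14.6 and 14.2 in KI. The KI libraries lay far below the rest, and KO and WT overlapped. *Fas* was 4.80-fold lower in KI than in WT (adjusted p = 2.29e-06) and 3.01-fold higher in KO than in KI (adjusted p = 2.02e-08), and the difference of KO from WT (-0.70, adjusted p = 0.00936) was not called with library totals or without WT 5-6 or WT 7. *Tnfrsf21*, death receptor 6, was lower in KO (-1.48, adjusted p = 7.28e-05) and higher in KI (0.94, adjusted p = 0.000463) than in WT.

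Among 14 tested regulators of the family, 6 were called higher and 2 lower in KO against WT (median 0.32, or 8 and 0 with library totals), 4 and 4 in KI against WT (median -0.13, or 5 and 2) and 7 and 2 in KO against KI (median 0.33, or 0.39 with the same counts with library totals). *Trp53*, the gene of p53, was 1.80-fold higher in KO than in WT (adjusted p = 0.000383) and 1.95-fold higher in KI (adjusted p = 0.000224), with no call between KO and KI (-0.09, adjusted p = 0.463). *Ddit3*, the gene of CHOP, a transcription factor of endoplasmic reticulum stress, had 20.3, 20.8, 20.6 and 24.7 CPM in KO, 11.8, 8.72 and 9.21 in WT, and 9.71, 7.66, 8.42 and 9.67 in KI. The KO libraries lay above the others, and *Ddit3* rose 2.15-fold in KO against WT (adjusted p = 0.00017) and was 2.44-fold higher than in KI (adjusted p = 6.20e-07). *Trib3*, a known target of CHOP, was 3.83-fold higher in KO (adjusted p = 2.20e-06) and 2.17-fold lower in KI (adjusted p = 0.000939) than in WT. *Nfkb1* was highest in KI (1.32 against WT, adjusted p = 2.24e-05). *Foxo3*, whose product can induce *Bcl2l11* and *Bbc3*, was not called in KO against WT (0.05, adjusted p = 0.825) and was lower in KI (-0.68, adjusted p = 0.0103) with TMM only. Between the edited lines, *Foxo3* was higher in KO than in KI with TMM (0.75, adjusted p = 4.08e-05) and with library totals (0.81, adjusted p = 9.44e-05).

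Of 16 targets of p53 outside the family, 7 were called higher and 3 lower in KO against WT (median 0.27, or 10 and 2 with library totals). The 10 called are near the 55.1% of all genes in number, but more were higher than lower, against 26.7% higher and 28.4% lower of all genes. *Aen*, an exonuclease gene, was 3.11-fold higher (adjusted p = 1.29e-06) and *Zmat3*, a zinc finger gene, 2.19-fold higher (adjusted p = 0.000311), whereas *Sesn1* was 2.03-fold lower (adjusted p = 0.00162). *Cdkn1a*, the gene of the cell cycle inhibitor p21, was 1.28-fold higher (177 ± 7.04 CPM in KO, 137 ± 14.4 in WT, adjusted p = 0.0237), a call kept in 3 of 7 fits that left out a library. *Mdm2*, the ligase of p53, was not called (0.32, adjusted p = 0.104), but it was with library totals (0.72, adjusted p = 0.0126). Its level was higher in KO than in KI with TMM (0.62, adjusted p = 8.79e-05) and with library totals (0.69, adjusted p = 0.000102). In KI against WT 3 were higher and 5 lower (median -0.29, or 5 and 3 with library totals), led by *Trp53inp1* (-1.33, adjusted p = 0.000175). In KO against KI 8 were higher and 2 lower (median 0.38), among them *Trp53inp1* (1.21, adjusted p = 6.76e-08), *Sesn2* (1.19, adjusted p = 1.27e-05) and *Cdkn1a* (0.71, adjusted p = 1.64e-06).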

How the data were processed

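The sequencing provider of the authors cleaned and mapped the reads and counted them per gene, and the authors deposited raw counts without normalization. The submitters' processing notes name HISAT2, TopHat2, Bowtie2 and StringTie, with no version or role, and the genome build is not given in the sources used here. Of 26472 lines, 10 with broken fields were left out. Counts with the same gene name were summed, which gave 24849 genes. The 11 FPKM columns and the 9 columns of the authors' own comparisons (fold changes and p-values) were not used.

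Each comparison was fitted on its 2 groups with edgeR 4.0.16 in R 4.3.3 (TMM, edgeR's filter on low counts, robust quasi-likelihood test, prior count of 2), and an adjusted p under 0.05 counted as a call. The levels printed are CPM scaled by TMM over all 11 libraries, and fold changes come from the fits. Alternatives were DESeq2 1.42.0, limma 3.58.1 on log2 CPM plus 1, library totals, no filter, a single fit, a replicate block, fits without the 2 most abundant newly assembled entries, single entries and leaving out each library. For the lists of related genes they were added after seeing the data. The edgeR test was also run on simulated counts, of which no result is given here. Figures used Python 3.11.15 and matplotlib 3.10.9.

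The members and lists were chosen with earlier results of these data known. The genes named are the members, 9 fixed genes, *Txndc5* and the genes nearest in pattern. Many, but not all, of the 3 called genes of each list with the largest change per comparison were also named. *Tnfsf10*, *Traf2*, *Foxo1*, *Birc3*, *Vdac1*, *Ccng1* and *Polk* were among those without values in the text. Of the genes listed, 2 are not reported here. Others named from the lists were chosen after their values were seen. Errors printed are SDs between libraries or SEs of the fits.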

Additional observations from a re-analysis of the deposited data

Results flagged for a closer look

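In 38 groups of 4 libraries (members and named genes in KO and in KI), 4 held a library whose gap to the nearest other, divided by the range of the group, was above Dixon's 95% critical value for 4 samples, and chance alone gives about 2. *Bcl2l1* was lowest in KI 8, with 217 CPM against 258 to 266 in the other KI libraries (ratio 0.841). *Bcl2l11* was highest in KI 7, with 23.4 CPM against 16.2 to 16.8 (0.912), and without KI 7 its call in KO against KI was lost. *Cdkn1a* was lowest in KO 7, with 167 CPM against 180.1 to 181 (0.906), and *Ddit3* was highest in KO 8, with 24.7 CPM against 20.3 to 20.8 (0.889). These are different libraries, and the WT group, with 3 libraries, was not examined in this way.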

How the results depend on the processing

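The calls of *Bbc3*, *Pmaip1* and *Bid* in KO against WT, and of *Bbc3*, *Pmaip1*, *Bak1* and *Mcl1* in KO against KI, were kept in every alternative. With library totals, log2 fold changes that turned positive in KO against WT were those of *Bax* (0.43), *Bcl2* (0.19) and *Bcl2l1* (0.37), and in KI against WT those of *Bbc3* (0.07), *Bax* (0.20), *Bcl2l1* (0.22) and *Pmaip1* (0.21), all within or near the shift of the median gene. *Bax* in KO against WT stood around 0 elsewhere, at 0.01 with no filter and with limma, 0.02 in a single fit, 0.05 with the block and 0.00 without the 2 abundant entries, and *Bid* in KO against KI was at 0.00 with DESeq2 and at -0.35 for its smaller entry. Leaving out each library gave -0.09 to 0.16 for *Bax*, -0.39 to 0.26 for *Bcl2* and -0.08 to 0.11 for *Bcl2l1* in KO against WT, -0.16 to 0.03 for *Bcl2l1* in KI against WT and -0.03 to 0.03 for *Bid* in KO against KI. It left 1 to 3 members called in KI against WT, with 1 without WT 7, KI 5, KI 6 or KI 8, namely *Bid*.

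No label ties the replicate numbers of different groups to each other. Same-numbered libraries varied together with correlations between -0.19 and 0.21. These correlations cannot decide whether the numbers mark shared cultures or batches, since pairs with unlike numbers were not compared. With the replicate number as a block, 1338 genes in place of 5722 were called in KI against WT, and 0 members in place of 3 by edgeR, of which 1 had an unadjusted p under 0.05, although the log2 fold changes of *Bid* (0.87), *Mcl1* (0.44) and *Bcl2l11* (-0.50) stayed near the 0.78, 0.39 and -0.52 without it. In KO against WT the block ended the call of *Bak1* (0.36, adjusted p = 0.0614) and of no other member. Without the block DESeq2 and limma called 3 in KI against WT. KI and WT share only the numbers 7 and 8, so this fit with the block rests on few libraries. The same is true of KO and WT, where the block ended the call of *Bak1* alone among the members. Whether the few shared numbers have a part in the loss of calls in KI against WT was not tested. Of the related genes in KI against WT, the block left 1 caspase, 0 genes of the apoptosome (0 with an unadjusted p under 0.05), 2 inhibitors of apoptosis, 1 death receptor or adaptor, 3 regulators and 0 p53 targets (2 with an unadjusted p under 0.05), and library totals gave 6 genes of the apoptosome in place of 3. Leaving out each library gave 2 to 5 caspases, 1 to 3 genes of the apoptosome and 5 to 9 p53 targets in KI against WT. The cause of these changes was not tested.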
